A study of Drosophila melanogaster with 3 samples.

Results

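Grain peaks on the X chromosome were the regions described here: 925 peaks, 14.1% of the authors' optimal list for the dm6 assembly, taken by the chromosome name alone. They were set against the 4315 peaks of arms 2L, 3L and 3R together, and the list held a further 1329 on 2R and 11 on chromosome 4. The assay was ChIP-seq with an antibody against GFP, in whole Drosophila melanogaster embryos aged 0 to 24 h with males and females pooled. The embryos came from a transgenic line, named grn-GFP in the labels, that makes Grain with GFP fused to its C-terminus, so the tagged protein and not the native one was pulled down from all tissues at once. All 3 biological replicates formed 1 group without a contrasting condition, so X was compared with other arms of the same libraries. A replicate was a separate library by its label, and nothing says how far the embryo collections were separate. The optimal list was found to hold the N highest signals of the list made from all replicates pooled, where N is its own number of peaks, and each replicate also had a list of 30000 ranked peaks. The pooled list is labelled as peaks and background, so its lower ranks need not all be Grain peaks. Peak signal is the authors' own value, of unstated scale, and served only to rank peaks within a list. Read counts are not part of these lists, and the depth behind a peak is unknown.

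Grain is a zinc-finger transcription factor of the GATA family, known for shaping the posterior spiracles of the embryo and for steering motor axons. GATA factors bind the core letters GATA, most often inside a hexamer. Those searched here were AGATAA, its variant AGATAG with another last base, and the forms with another first base, TGATAA and likewise TGATAG. Male flies carry a single X and females a pair, and in males a complex of proteins and the roX RNAs raises transcription of the X. In embryos of pooled sex the X therefore gives less chromatin per nucleus than an autosome does. The labels do not give the ratio of the sexes, and the control library was not analysed here. Copy number, gene content and binding cannot be told apart as sources of any difference between X and the other arms.

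The sequences under the strongest X peaks show what lay at these summits. Each is the plus strand of the dm6 reference over the summit and 50 bases to either side, and capitals mark every one of the 4 hexamers on either strand. The first 6 belong to the strongest X peaks that had a hexamer and no untranslated exon in this window, named by the gene that held the summit or else had the nearest protein-coding start.
sog, intron, chrX:15610267-15610367: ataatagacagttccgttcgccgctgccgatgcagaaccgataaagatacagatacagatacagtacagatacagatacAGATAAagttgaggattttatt
CG17841, intron, chrX:10370474-10370574: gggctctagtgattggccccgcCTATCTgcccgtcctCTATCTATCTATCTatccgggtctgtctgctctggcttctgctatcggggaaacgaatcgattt
Abcd3, intron, chrX:19754367-19754467: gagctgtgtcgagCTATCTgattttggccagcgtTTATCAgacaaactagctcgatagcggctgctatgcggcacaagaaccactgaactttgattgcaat
CG3703, intergenic, chrX:946366-946466: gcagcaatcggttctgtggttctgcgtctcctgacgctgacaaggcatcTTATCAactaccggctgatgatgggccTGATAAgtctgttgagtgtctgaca
upd3, intergenic, chrX:18285365-18285465: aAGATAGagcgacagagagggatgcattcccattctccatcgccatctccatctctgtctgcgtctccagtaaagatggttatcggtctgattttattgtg
CG3655, intron, chrX:1120606-1120706: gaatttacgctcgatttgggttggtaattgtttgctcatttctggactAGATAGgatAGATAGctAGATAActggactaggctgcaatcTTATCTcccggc
The other two are the strongest X peaks without a hexamer in the window.
Top3beta, intergenic, chrX:6287995-6288095: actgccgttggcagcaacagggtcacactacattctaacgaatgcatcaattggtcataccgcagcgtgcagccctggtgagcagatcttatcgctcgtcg
CG4313, intron, chrX:2050487-2050587: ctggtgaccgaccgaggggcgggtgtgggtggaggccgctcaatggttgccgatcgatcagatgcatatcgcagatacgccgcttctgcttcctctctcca
The hexamers were arranged differently from window to window. The sog window held a run of GATA cores, all 7 on the plus strand, of which 1 stood in a full hexamer 32 bp from the summit. The windows of CG17841 and CG3655 each held 4 hexamers, some of them overlapping in CG17841, with the nearest at 2 bp and 1 bp. The strongest X peak, at Top3beta, held 1 GATA core outside any of the 4 hexamers.

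The X carried fewer Grain peaks for its size than each of the 3 autosomal arms. It had 39.4 optimal peaks per Mb of known sequence, against 53.6 on 2L, 52.6 on 3L and 49.3 on 3R. X held 17.7% of the optimal peaks on these 4 arms (95% Wilson interval 16.6 to 18.7%), with 21.9% of their known sequence, 19.9% of their protein-coding genes and 21.1% of their annotated transcript starts. Such intervals cover counting error over listed peaks only, and neighbouring peaks are not independent. X summits also lay farther apart, with a median gap to the nearest summit of 2636 bp on X and 1974 bp on the other 3 arms.

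The deficit of X was deepest among the strongest peaks, and in the weakest band of every list the X share stood above the X share of genes. In the pooled list X held 14.0% of the peaks on these arms at ranks 1 to 1000, 18.9% at ranks 3001 to N and 24.1% at ranks 20001 to 30000. The pooled list is labelled as peaks and background, and how much of its weakest band is background was not tested. Each replicate list gave the same order of its ends. At ranks 1 to 1000 X held 13.7%, 13.2% and 13.2% in replicates 1, 2 and 3, and at ranks 20001 to 30000 it held 23.7%, 21.5% and 24.9%. The mean difference was −9.97 ± 1.69 percentage points (SD, n = 3 replicates), and the exact two-sided sign-flip test gave p = 0.25, the smallest it can give with 3 replicates. On the other arms the strong band held the larger share in all 3 replicates, by 4.59 to 5.54 points on 2L, 2.56 to 3.19 points on 3L and 0.510 to 3.65 points on 3R. Shares of 4 arms sum to the whole, so a smaller share of X has to raise the others together. At the very top the X peaks were few: 3 of the 19 peaks on these arms among the 25 strongest, 8 of 77 among the 100 strongest and 42 of 388 among the 500 strongest.

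**Figure D1:**
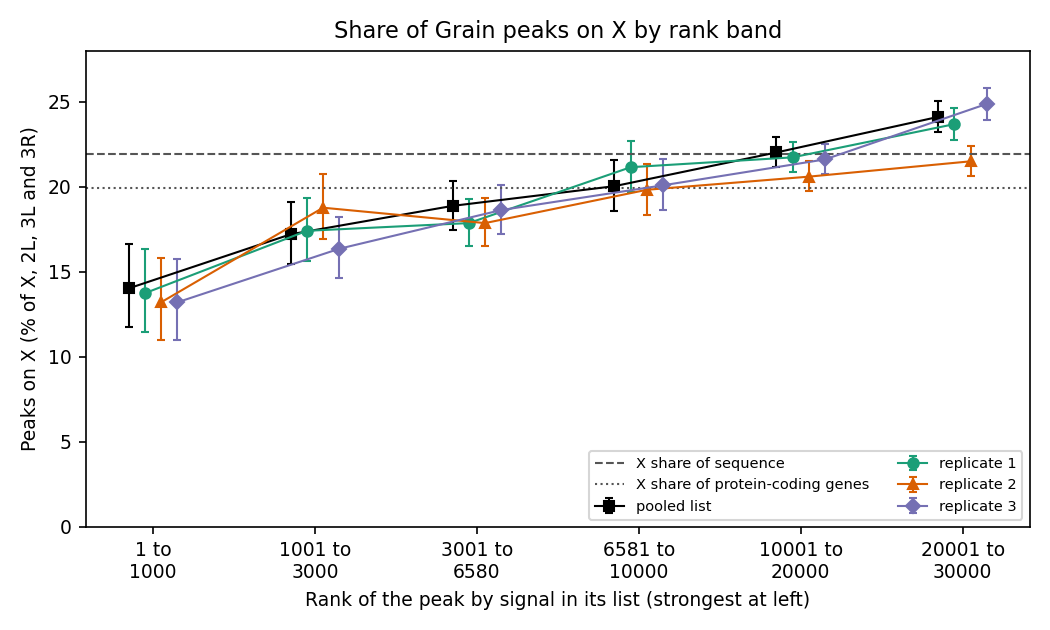
Share of peaks on X, as a percent of the peaks on X, 2L, 3L and 3R, for 6 bands of rank by signal (strongest at left) in the pooled list and in each replicate list. Bars are 95% Wilson intervals and the dashed and dotted lines are the X share of known sequence and of protein-coding genes. All 4 lists lie between 13.2 and 14.0% in the strongest band and between 21.5 and 24.9% in the weakest. The pooled list is labelled as peaks and background.

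The strongest X peak, with a signal of 1536 and rank 5 in the optimal list, lay 55 bp from the start of Top3beta, which encodes a topoisomerase. It ranked 9, 4 and 6 in replicates 1, 2 and 3, so all replicates placed it near the top. The next, of signal 1488 and rank 7, lay in an intron of CG4313 but only 417 bp from a start of moody, which encodes a G protein-coupled receptor of the glial blood-brain barrier. It ranked 7, 11 and 5 in the 3 replicates. Neither of these peaks had a GATA hexamer within 50 bp of the summit.

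The third was in an intron of sog, which encodes a secreted antagonist of BMP signalling in dorsoventral patterning. Its peak (chrX:15609975-15610755) had a signal of 1122, rank 20, and lay 16223 bp from the nearest annotated start. It ranked 31, 85 and 12 in replicates 1, 2 and 3, a mean of 42.7 ± 37.9 (SD, n = 3), so its place at the top was uneven between libraries. Replicate 2 put it lowest.

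The other genes of the 15 strongest X peaks had varied roles, and most of their summits lay near a start. Inx2, which encodes a gap junction innexin, had a peak of signal 913 that lay in a non-coding exon of another gene, 1602 bp upstream of the Inx2 start. Summits lay within 50 bp of the start of Ugalt, a UDP-galactose transporter, of CG15717, and of Hira, a histone H3 chaperone, with signals of 887, 877 and 646. Efr, a nucleotide-sugar transporter, had its summit 98 bp from a start, and Flo2, a flotillin of membrane microdomains, 286 bp from a start. The peaks of CG17841, Abcd3 (a peroxisomal ABC transporter) and Mct1 (a monocarboxylate transporter) lay in introns, and that of CG3149 lay between genes, 1419 bp from its start and 499 bp from the nearest start of any gene. The CG3703 summit lay 643 bp from a start. The only peak of the 15 that was both outside a gene and over 1000 bp from any start was 8182 bp from the start of upd3, the nearest protein-coding start. upd3 encodes a ligand of the JAK/STAT pathway, and the peak lay past the far end of the gene. It ranked 217, 591 and 122 in the 3 replicates. Of the 15 summits, those at sog, CG15717, CG17841, Abcd3, CG3703, Flo2, Hira and upd3 had a hexamer.

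The replicates agreed on most X peaks, and less often than on the other arms' peaks. Of the X peaks, 63.1% (584 of 925) lay among the N strongest peaks of all 3 replicate lists, against 68.3% (2948 of 4315) on the other arms and 67.4% of both together. The difference of −5.18 points (95% interval −8.63 to −1.83) gave p = 0.0026 by Fisher's exact test, two-sided, and 0.0077 after Benjamini-Hochberg adjustment over 3 shares tested. The share was 70.4% on 2L, 67.3% on 3L and 67.6% on 3R, so X lay below each. This count followed signal closely. When the list was cut by signal into 5 equal bins, in the strongest bin it was 100% on X and 99.8% on the other arms, and in the weakest 12.5% on X and 18.0% on the other arms. With the other arms weighted to the bin sizes of X, the difference was −1.29 points (p = 0.35, exact conditional test stratified by bin). With every peak of the replicate lists admitted it was −0.254 points (p = 0.54, Fisher's exact test). That setting left little room for a difference, since nearly all peaks then recurred. Peaks without an overlap in replicates 1, 2 and 3 were 0, 11 and 5 on X and 6, 26 and 27 on the other arms.

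X peaks ranked lower than the others' peaks in each replicate. The median rank of the X peaks was 3410 in replicate 1, against 3017 on the other arms. In replicate 2 the medians were 3162 on X and 3088 on the other arms, and in replicate 3 they were 3473 on X and 2910 on the other arms. The X peaks were 343 ranks lower on average, with an SD of 248 over the 3 replicates (p = 0.25, exact sign-flip test). The medians leave out the X peaks that overlapped no peak of a list, of which there were 0, 11 and 5 in replicates 1, 2 and 3. Replicate 2 showed the smallest gap, and there the median of 3L, 3229, was lower in the list than that of X. Within the optimal list the median signal was 166 on X and 177 on the other arms. Of the 100 strongest X peaks, 22 had a worst rank more than 3 times their best, and replicate 2 gave the worst rank for 41 of the 100. Besides sog, the most uneven were an intronic peak of S6KL, ranked 1253, 2957 and 447, and one of CG43658, ranked 650, 2052 and 320.

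**Figure D2:**
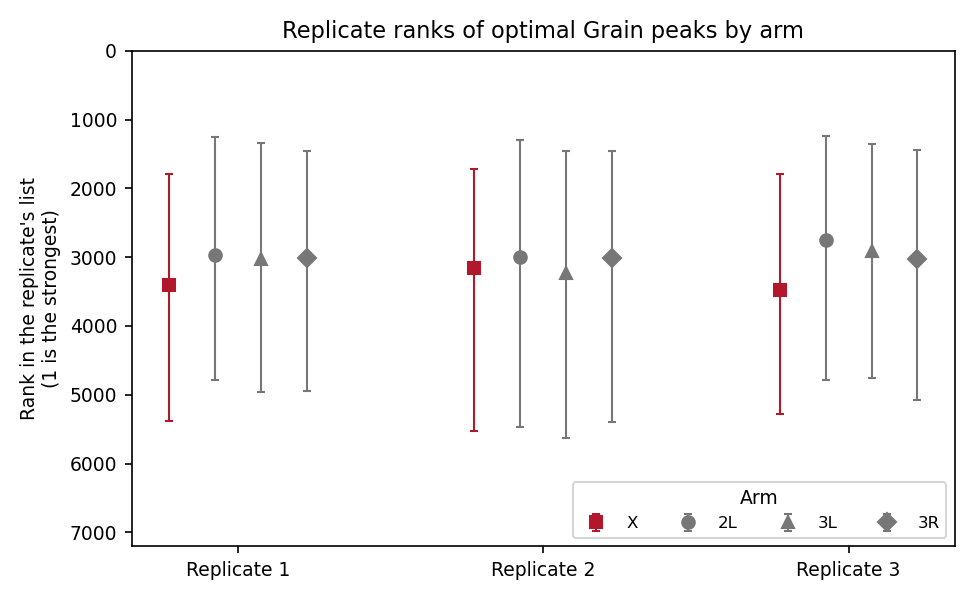
Rank in each replicate's list (1 is the strongest, at the top) of the optimal peaks of X, 2L, 3L and 3R. Points are medians and bars run from the 25th to the 75th percentile over peaks; the medians of X are 3410, 3162 and 3473, and only 3L in replicate 2, at 3229, lies lower than X of the same replicate.

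Most X summits lay in introns, and this share set X apart from the other arms. An intron held 61.2% of X summits (566 of 925), against 50.2% (2168 of 4315) on the other arms and 52.2% of both together. The difference was 10.9 points (95% interval 7.43 to 14.4; p = 8.5e-09, Fisher's exact test, adjusted over 13 secondary comparisons). The autosomal arms lay close together, at 50.7% on 2L, 48.7% on 3L and 51.4% on 3R. Summits between genes made up 22.8% on X and 32.9% on the other arms, a difference of −10.1 points (95% interval −13.0 to −6.92; adjusted p = 8.5e-09, Fisher's exact test). The shares of summits in 5' UTRs, 3' UTRs and coding sequence did not pass the same test, at 10.1, 1.73 and 1.73% on X and 10.8, 1.78 and 1.39% on the other arms.

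The X sequence itself holds more intron, by a smaller margin. Introns cover 46.8% of known X sequence and 42.3% of that of the other arms, and sequence between genes covers 25.2% of X and 31.3% of the other arms. By arm, introns cover 39.6% of 2L, 40.1% of 3L and 46.2% of 3R, so 3R is close to X. Sequence between genes covers 32.3% of 2L, 35.2% of 3L and 27.2% of 3R. The summit share over the sequence share in introns was 1.31 on X and 1.19 on the other arms, but 2L alone gave 1.28. The same ratio between genes was 0.905 on X, 0.946 on 2L, 1.00 on 3L and 1.20 on 3R. No test was made of these ratios, in which X was nearer to 2L than 2L was to 3R. Among the N strongest of each replicate the intron share was 60.3, 59.1 and 61.9% on X and 50.01, 49.3 and 49.3% on the other arms. The mean difference was 10.9 ± 1.52 points (SD, n = 3; p = 0.25, exact sign-flip test), higher on X in all 3 replicates.

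The promoter share of X peaks lay inside the range of the autosomal arms. On X 36.3% of summits (336 of 925) lay within 500 bp of an annotated transcript start, against 38.7% (1672 of 4315) on the other arms and 38.3% of both together. The difference of −2.42 points (95% interval −5.80 to 1.04) did not pass Fisher's exact test (adjusted p = 0.18), and the interval still holds a deficit of over 5 points. The arms themselves spread between 35.4% on 3L and 41.4% on 3R. With 2R added to the autosomal arms the difference was −3.95 points and passed the threshold (p = 0.025, Fisher's exact test, unadjusted), and above the median signal of the list it was −4.67 points (p = 0.073, Fisher's exact test, unadjusted). Taken among the N strongest of every replicate, it was 36.8 ± 2.44% on X and 39.6 ± 1.72% on the other arms (SD, n = 3), lower on X in each.

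**Figure D3:**
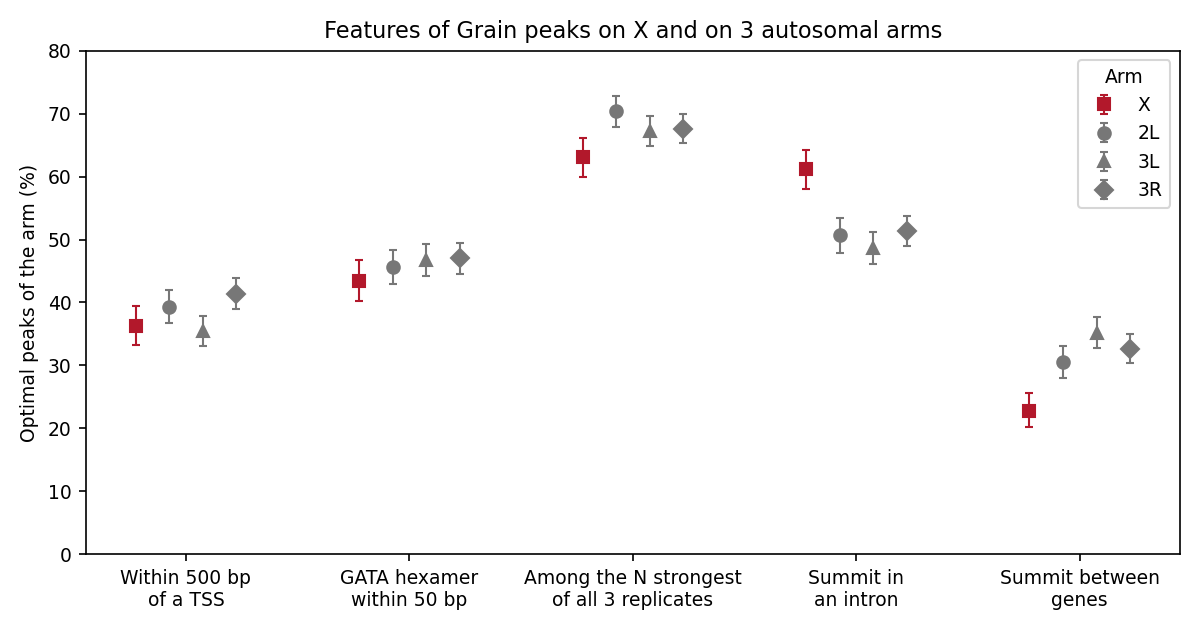
Percent of the optimal peaks of each arm (X in red, 2L, 3L and 3R in grey) with each of 5 features; bars are 95% Wilson intervals. The X point stands clear of the 3 autosomal arms for summits in an intron (61.2%) and between genes (22.8%), and lies within or beside them for the promoter share (36.3%) and the hexamer (43.5%).

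X summits carried the GATA hexamer less often than those of each of the 3 autosomal arms, by a difference that did not pass the test. Within 50 bp of the summit 43.5% of X peaks (402 of 925) had one, against 46.5% (2006 of 4315) on the other arms and 46% of both together. By arm the share was 45.6% on 2L, 46.7% on 3L and 47.0% on 3R. The difference of −3.03 points (95% interval −6.52 to 0.512) did not pass Fisher's exact test (adjusted p = 0.14). An equally wide window 500 bp to the right of the summit held a hexamer in 17.3% of X peaks and 18.3% of the others, so the rise at the summit was 2.51 times on X and 2.54 times on the other arms. The median distance from summit to nearest hexamer, where one lay within 510 bp, was 52 bp on X and 48 bp on the other arms. Summits with 2 or more copies were 12.2% on X and 14.0% on the other arms.

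By location, X summits within 500 bp of a start had a hexamer in 34.8% of cases, against 39.5% on the other arms, and X summits over 1000 bp from any start in 48.5%, against 50.8%. Neither difference passed the test (adjusted p = 0.28 and 0.56, Fisher's exact test). Over the strongest peaks of each replicate the hexamer share was 42.1 ± 1.39% on X and 44.4 ± 0.733% on the other arms (SD, n = 3). It was lower on X in all 3, with a difference of −0.506 points in replicate 3. Among peaks with a hexamer, recurrence in all 3 replicates was 63.9% on X and 71.7% on the other arms, a difference of −7.80 points (adjusted p = 0.0097, Fisher's exact test). Among peaks without one it was 62.5% on X and 65.4% on the other arms (adjusted p = 0.36, Fisher's exact test). Once the other arms were weighted to the signal bins of X, the differences were −1.99 points with a hexamer (p = 0.32, exact conditional test) and −0.662 points without (p = 0.74, exact conditional test). Whether the difference with a hexamer differs from that without was not tested.

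The 4 hexamers were also counted one by one, without a test of one against another. AGATAA lay at 16.0% of X summits and 19.7% of the others, a difference of −3.68 points (adjusted p = 0.039 over the 4 hexamers, Fisher's exact test). TGATAA lay at 19.1% of X summits and 21.8% of the others, and TGATAG at 5.41% of X summits and 6.535% of the others. AGATAG alone had the higher share on X, 10.8% of X summits against 8.88% of the others. The last 3 did not pass the test, with adjusted p of 0.10, 0.23 and 0.10 (Fisher's exact test). This split of the hexamers was tested after their shares had been seen. AGATAG is the form that a run of repeated GATA contains, as in the CG17841 window.

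**Figure D4:**
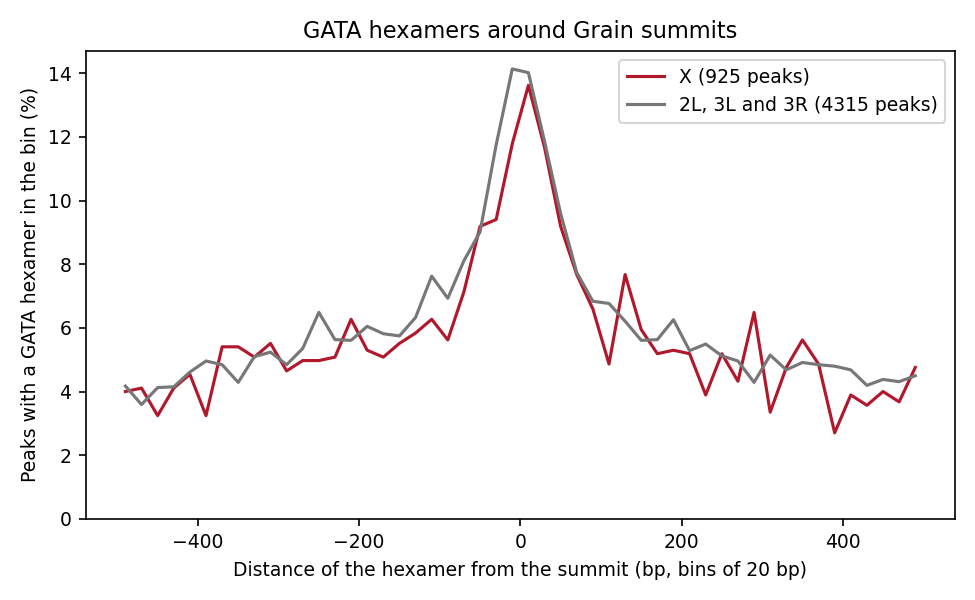
Percent of optimal peaks with a GATA hexamer in each 20-bp bin of distance from the summit, for the 925 X peaks (red) and the 4315 peaks of 2L, 3L and 3R (grey). Both lines peak at the summit, at 13.6% on X and 14.1% on the other arms, and are close to each other farther out.

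None of the 15 motifs searched on both strands, 3 rearrangements of the GATA hexamer among them, differed between X and the other arms after adjustment (Fisher's exact test). The smallest unadjusted p was 0.053, for the GA repeat GAGAGAGA, at 2.59% of X summits and 1.60% of the others. At X summits the GAGA element GAGAG, which overlaps that repeat, stood at 14.6%, as it did on the other arms. The Zelda site CAGGTA, bound by a factor that opens early embryonic chromatin, stood at 2.27% of X summits and 2.83% of the others. The DREF element TATCGATA stood at 1.84% of X summits and 1.23% of the others, and the M1BP element GGTCACAC at 0.649% on X and 0.857% on the other arms. The homeodomain core TAATTA stood at 5.30% on X and 6.03% on the other arms, and the initiator letters TCAGT at 20.2% on X and 20.5% on the other arms. The E box CAGCTG stood at 4.22% on X and 4.87% on the other arms, and the E box CATATG at 3.78% on X and 3.06% on the other arms. The repeat CACACACA stood at 2.92% on X and 2.16% on the other arms, and the A tract AAAAAAAA at 4.97% on X and 4.08% on the other arms. A match says that the letters are there, not that a factor was bound.

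On X 530 of 2196 protein-coding genes (24.1%) held an optimal summit in the gene or within 1000 bp upstream, against 2272 of 8817 (25.8%) on the other arms and 25.4% of both together. Genes of X were longer, with a median of 2521 bp on X and 2080 bp on the other arms, and long genes held summits more often. In each of 5 equal bins of gene length X was the lower, with 7.03% on X and 9.66% on the other arms in the shortest bin and 48.4% on X and 53.4% on the other arms in the longest. Of the 530 X genes, 327 held 1 summit and 40 held 5 or more. By this rule 820 of the 925 X peaks counted for some protein-coding gene and 105 for none. A peak can count for 2 overlapping genes, and which gene it acts on is unknown.

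Genes of signalling pathways held summits beyond sog. In the list of Wnt, Hedgehog and BMP signalling 5 of 10 X genes (50%) held 15 summits in all, beside 24.1% of all X genes. The median gene of this list was 4344.5 bp long, against 2521 bp for all X genes. After sog, with 7 summits, the strongest were at Smr, a nuclear co-repressor, with 4 summits and a best signal of 403, and at cv, a BMP-binding protein, with 1 summit of signal 355 lying 81 bp from its start. arm, the fly beta-catenin, had 1 summit of signal 340 with a hexamer, 167 bp from a start. Smox and dsh held none. In the list of Notch, EGF receptor and other signalling 3 of 6 genes (50%) held summits, and the median gene was 15844 bp long. Raf, a kinase below receptor tyrosine kinases, had 8, all over 500 bp from any start, 5 of them recurring in all replicates. N, the Notch receptor, had 3, and Pvf1, a ligand of the PDGF and VEGF type, had 1 of signal 206. csw and dor held none. In the JAK/STAT pathway 2 of 5 genes (40%) held summits, and the median gene was 7169 bp long. This median and that of the Notch list fall in the longest bin of gene length, where 48.4% of X genes held a summit. upd3 had an intronic summit of signal 172 and upd2 one of signal 117 with a hexamer. dome and hop, the receptor and kinase, held none. The strong peak past the end of upd3 is not in that count.

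Of 21 homeodomain and other transcription factor genes on X, 9 (42.9%) held 32 summits, beside 24.1% of all X genes. Of the 32 summits, 14 had a hexamer and 21 recurred in all replicates, beside 43.5% and 63.1% of all X peaks. The median gene of this list was 22657 bp long, against 2521 bp for all X genes. That length falls in the longest bin of gene length, where 48.4% of X genes held a summit. Hr4, a nuclear receptor of ecdysone signalling, held 9, all recurring in all 3 replicates and 5 with a hexamer; its strongest had a signal of 386 and ranked 970, 821 and 633. Lim1, a LIM homeodomain factor, held 6 with a best signal of 388, and bi, a T-box factor, held 6 with a best signal of 334. B-H1 and B-H2 held none. In the segmentation and patterning list 5 of 11 genes held summits, with sog, Dsp1, an HMG-box protein, and Sp1, a zinc-finger factor, at the top. The Dsp1 summit, of signal 407, lay in a neighbour's intron upstream of the gene. btd and exd held none. Of the 8 genes listed under achaete-scute and neural specification, elav, svr and vnd held 7 summits in all. Only 1 of these 7 recurred in all replicates, beside 63.1% of all X peaks. The best at elav, which encodes an RNA-binding protein of neurons, had a signal of 329 and lay 280 bp from its start. The proneural genes ac and ase held none.

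Most of the epithelial genes listed held summits. Of 17 genes for polarity and actomyosin, 12 (70.6%) held 36 summits, beside 24.1% of all X genes. Of the 36 summits, 19 had a hexamer, beside 43.5% of all X peaks. Recurrence in all replicates held for 19 of the 36, beside 63.1% of all X peaks. Their median length was 12945 bp, against 2521 bp for all X genes. sdt, the Stardust scaffold of the Crumbs complex, had 6 summits that all recurred in every replicate, the best of signal 459, which ranked 478, 1087 and 313. baz, the fly Par-3, had 4 with a best signal of 367. Cdc42 held none. In the adhesion and axon guidance list 8 of 15 genes (53.3%) held 32 summits, and the median gene was 44082 bp long. In the longest bin of gene length 48.4% of X genes held a summit. if, an alpha integrin, had 5 with a best signal of 347, Ten-a, a teneurin of synapse matching, had 6 with a best of 316, and kirre, an adhesion protein of myoblast fusion, had 11 with a best of 279. Appl and DIP-alpha held none.

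Ribosomal protein genes held single summits close to transcript starts. Of 14 on X, 11 (78.6%) held 1 summit each, beside 24.1% of all X genes. All 11 summits lay within 500 bp of a start, at times a neighbour's. A hexamer lay at 1 of them, beside 34.8% of all X summits within 500 bp of a start. The median gene of this list was 1603 bp long. Of these 11 summits 4 recurred in all replicates, beside 63.1% of all X peaks. RpL22 had a signal of 290 with its summit 68 bp from the start, RpS10b 287 at 29 bp, and RpL17 230 at 21 bp. RpL22 ranked 1013, 2256 and 1965 in the 3 replicates, RpS10b 1834, 929 and 1611, and RpL17 2181, 1784 and 3259. The RpS5a peak ranked 3620 and 2158 in replicates 1 and 3 but 28023 in replicate 2. The RpS19a peak, 21 bp from its start, also counts for Rok, which lies beside it. RpL37-1 and RpL7A held none.

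Genes of dosage compensation and X counting held 1 summit among 9 genes. It lay at Sxl, the switch gene of sex determination, 346 bp from a start, with a signal of 121 near the bottom of the list, and ranked 8491, 4926 and 5928, so it was among the N strongest of replicates 2 and 3 only. lncRNA:roX1, lncRNA:roX2 and mof, the acetyltransferase of the male complex, held none. Of 16 genes with classic visible mutants 5 held summits, with m, a gene of the wing surface, at 389, cv at 355 and sn, the actin-bundling fascin, at 348. The m summit lay 10587 bp from an m start and 270 bp from the nearest start, with CG9360 the nearest protein-coding one. The sn summit lay 2329 bp from an sn start and 1883 bp from the nearest start, with sws the nearest protein-coding one. B-H1 and Bx held none, and neither did w or y. Of 14 channel and gap junction genes Ork1, a potassium leak channel, ogre, an innexin, Inx2 and Hk held summits, at best of signals 257, 225, 192 and 137, while Inx5 and Inx6 held none. The strong Inx2 peak named above lay upstream of the limit and is not in that count. Of 8 cell cycle and growth genes Top1, fzr and Myc held summits of signals 216, 176 and 155, and Cdk7 and CycD held none. The lists differ in gene length and were drawn up with results of these data known, so their shares are descriptions, to be read beside the 24.1% of all X genes.

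**Figure D5:**
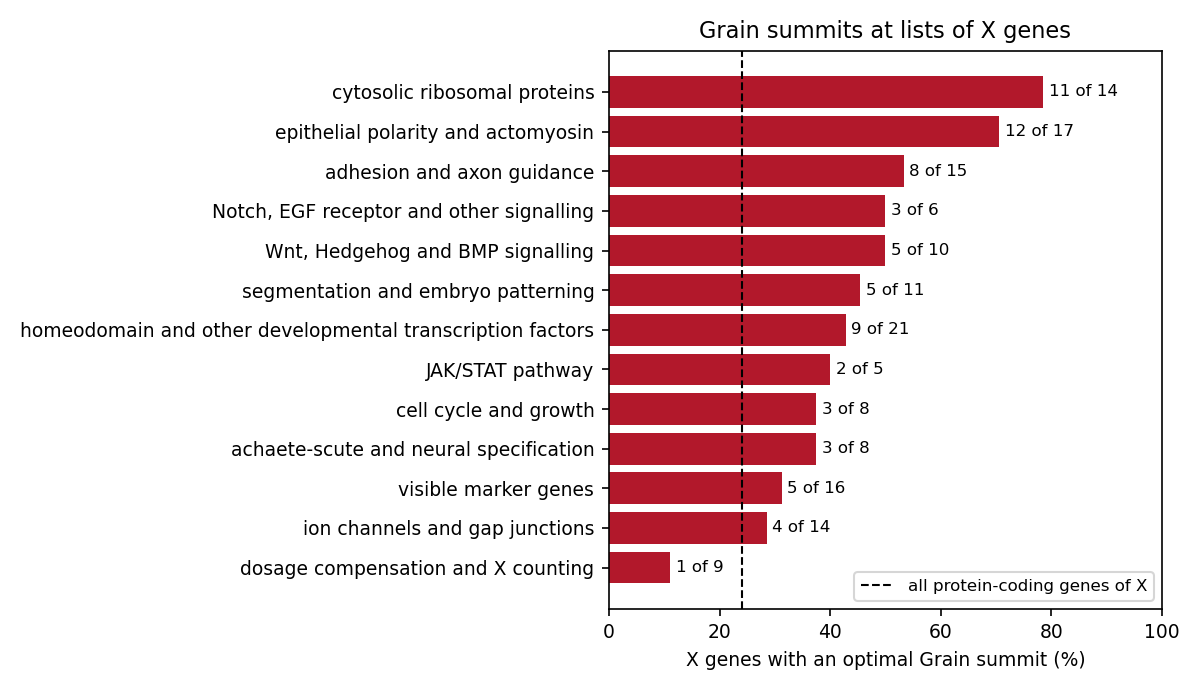
Percent of the X genes of 13 lists that held an optimal summit in the gene or within 1000 bp upstream, with the counts at the bars. The lists differ in gene length. The dashed line is the 24.1% of all protein-coding X genes; ribosomal proteins (11 of 14) and epithelial polarity (12 of 17) lie highest and dosage compensation (1 of 9) lowest.

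The most summits in 1 X gene were the 17 of CG1677, an annotated span of 124709 bp that holds other genes inside it. Of these, 6 had a hexamer and 12 recurred in all replicates, beside 43.5% and 63.1% of all X peaks. The best, of signal 345, ranked 653, 3035 and 1154. kirre followed with 11, pigs with 10, Hr4 with 9 and Raf with 8, a count that CG12535 shared. The kirre span likewise holds other genes inside it. The densest stretch of 50000 bp on X, chrX:7292054-7342053, lay within CG1677 and held 16 summits. Along the arm, counts per Mb ran highest at 65 in the seventh Mb and low at the end next to the centromere. The last 4 bins, from 20000001 on, held 14, 15, 6 and 4 summits, with 81, 55, 46 and 13 protein-coding genes. The last bin is shorter than the others, running from 23000001 to 23542271, so its counts are not per full Mb.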

How the data were processed

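The files are ranked peak lists for each of 3 replicates, for the replicates pooled, and an optimal list set by the irreproducible discovery rate method. Peaks were called by the authors per replicate and on pooled alignments, each with a control, on dm6 and dm3, per the file descriptions deposited with the samples. For aligner, caller and settings: not given in the sources used here. The authors' signal (scale not stated) ranked peaks within a list. The deposited −log10 q-value sits at 1 maximum per list for strong peaks and was not used, and no p-value of the authors' was. The deposited summit offset placed each summit. Depth is unknown, and intervals cover counting error only.

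Coordinates are dm6, counted from 1, and sequences come from RefSeq release 6. Annotation is Ensembl 115, after a check that arm names matched and no peak ran past its arm. Scripts ran in Python 3.11.15 with NumPy 2.4.6, SciPy 1.17.1 and statsmodels 0.14.6, and were tested on simulated data. Promoter summits lay within 500 bp of a transcript start. A peak recurred when it overlapped, by at least 1 bp, a peak among the N strongest of a replicate, N being the number of optimal peaks. Shares were compared with Fisher's exact test and Newcombe intervals, adjusted over 3 main, 13 secondary, 15 motif or 4 hexamer comparisons. Such p-values treat peaks as independent, which they are not, and describe these lists only. Shares reweighted by bin used an exact conditional test over the bins. Replicate differences used the exact two-sided sign-flip test.

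The X peaks, gene lists and tests were chosen with earlier results of these data known. Named genes are those of the 15 strongest X peaks, per list up to 3 members with the strongest peaks and 2 with none (in alphabetical order), and the 5 genes with the most summits. Some members of the epithelial list that this rule names are not reported here. moody, S6KL, CG43658, CG3655, CG12535, CG3603, CG9360, sws, Hk, Rok, RpS5a, RpS19a, w, y and mof were named after their values were seen. Of 143 listed symbols, all matched the annotation, 6 under another symbol, and RpL10, not on X, was dropped.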

Additional observations from a re-analysis of the deposited data

How the results depend on the processing

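Recurrence in all replicates depended on signal. Its difference between X and the other arms was 0.0750 points among optimal peaks above the list's median signal (p = 1, Fisher's exact test), where almost every peak recurs by construction. It was −1.29 points (p = 0.35, exact conditional test) when reweighted by bins of signal. It was −0.254 points (p = 0.54, Fisher's exact test) when all peaks of each list counted, where nearly every peak recurred. For peaks with a hexamer, reweighting, an alternative chosen after seeing the data, gave −1.99 points (p = 0.32, exact conditional test). Leaving out 1 replicate gave −5.68 to −3.72 points. With 2R added to the autosomal arms the promoter difference was −3.95 points (p = 0.025, Fisher's exact test, unadjusted), past the threshold, and the X share of peaks was 14.1%, lower because the total was larger. Above the median signal that share was 16.4%. The cause of the promoter change was not tested.

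The intron difference, whose alternatives were chosen after seeing the data, kept its side of the threshold in all 6, at 9.16 points (introns of protein-coding genes only) to 13.6 points (above the median signal). The hexamer difference did not pass in any alternative run. Leaving out 1 replicate moved the mean rank gap between 233.5 and 478. The X share of the N strongest peaks of a replicate minus that of its other peaks was −4.81 points on average. Leaving out 1 replicate moved that mean between −5.51 and −4.38 points. X and the other arms were compared within each replicate in the mean differences over replicates. Unknown depth limits what the weak peaks can show.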
